A study of Sus scrofa with 18 samples.

Results

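The cell cycle genes of pig backfat were followed over 6 ages. They are the loci that the deposited annotation places in the KEGG cell cycle pathway, without those also placed in the entries for protein processing in the endoplasmic reticulum or the proteasome, without the 3 TGF-beta ligands, and with at least 0.1 FPKM (fragments per kilobase of locus, scaled to sequencing depth) in at least 3 of 18 libraries. The pathway entry was carried by 114 loci. Of these, 3 were left out for the other entries, 3 as TGF-beta ligands and 3 for low FPKM, which left 105 members of the 27883 loci in the table. The 3 low loci were CCNA1, SMC1B and PKMYT1, which reached, in the 3 highest libraries each, at least 0.0363, 0.0885 and 0.0932 FPKM. On the same measure the members nearest to the limit were CDC6 at 0.138 and CCNB3 at 0.179 FPKM.

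A dividing cell copies its DNA and then separates the copies in mitosis. Cyclins switch on the cyclin-dependent kinases (CDK) that drive each step. CDK inhibitors and the RB proteins hold the cell before DNA replication, and a spindle checkpoint holds it in mitosis until the chromosomes are attached. Mature adipocytes as a rule do not divide, while their precursors and the vessel and immune cells of fat can. The members were grouped by role as 21 mitotic kinases, cyclins and checkpoint genes, 12 genes of the anaphase-promoting complex, 5 of cohesin, 16 of DNA replication, 5 CDK inhibitors, 10 G1 cyclins and kinases, 17 of the RB and E2F circuit, 9 of the DNA damage response, 6 14-3-3 proteins and 4 of SMAD and GSK3.

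Backfat of the shoulder was taken from Ningxiang pigs, a fat-type breed, every 60 days from 60 to 360 days of age, which gives 6 stages with 3 pigs and 3 libraries each and no treatment. All were castrated males by the methods of the study, and the pigs of a stage were full siblings, so that age and litter cannot be told apart. In bulk tissue, fewer cells of a type and less RNA per cell cannot be told apart either. Total counts lay between 74077094 and 84236689 per library, and the members took 0.518% to 0.667% of them. The adipocyte marker list (7 genes) summed to 566.5 to 1281 FPKM and was present in each library. Summed markers of skeletal muscle reached 177 FPKM in 120 days replicate 2 and 341 FPKM in 180 days replicate 1, and those of liver 478 FPKM in 240 days replicate 2 and 333 FPKM in 300 days replicate 2, against medians of 1.68 and 1.66 FPKM. The libraries also differed in genes of the Y chromosome (EIF1AY, KDM5D and ZFY). Their sum was 128 to 278 CPM (counts scaled to the library total) in 11 libraries, and 0.226 to 13.1 CPM in 60 days replicates 1 and 3, 120 days replicate 2, 180 days replicates 1, 2 and 3 and 300 days replicate 2. 360 days replicate 3 stood apart as well. It had the lowest share of counts in members (0.518%), and by the sequencing statistics its reads were the highest in GC content and the lowest in unique mapping. The 7 low-Y libraries go against the castrated males that the methods describe, while the sample labels give no sex. Among these, 300 days replicate 2 was at 13.1 CPM and the others at 0.911 CPM or less. Without these 7, no library of 180 days and 1 library of 60 days remain.

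The mitotic genes were the lowest and the most variable group. Their median levels over the 18 libraries ran from 0.0896 FPKM for CCNB3 to 9.76 FPKM for BUB3, and 14 of 21 lay under 1 FPKM. The highest library stood above the lowest by 6.45 times in the median mitotic member, against 2.35 times in the median replication member and 2.23 times in the median CDK inhibitor. The median inhibitor level was 1.38 FPKM, from 0.155 FPKM for CDKN2B to 5.76 FPKM for CDKN1B, and the median replication level was 1.71 FPKM, from 0.0834 FPKM for CDC6 to 3.98 FPKM for PCNA. The median count of the mitotic genes was 96 to 502 per library. Levels per length are the authors' FPKM. Count and FPKM of a locus together imply 1 length per locus, and it was over 20 kb for 19 of 105 members, with 184 kb for ORC4 and 154 kb for CREBBP, against a median of 7.70 kb.

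Levels of 11 of the 21 mitotic genes were highest at the first stage in 1 pig. Of all 105 members, 23 by FPKM and 19 by CPM were highest in that library, 60 days replicate 2. In 60 days replicate 1 it was 21 by FPKM and 7 by CPM, and in 360 days replicate 3 it was 8 by FPKM and 13 by CPM. The share of all loci highest in each library was not counted. BUB1B, a kinase of the spindle checkpoint, had 0.287, 1.33 and 0.362 FPKM at 60 days, 0.452, 0.321 and 0.227 FPKM at 120 days, 0.229, 0.255 and 0.174 FPKM at 180 days, 0.107, 0.199 and 0.138 FPKM at 240 days, 0.109, 0.0803 and 0.0905 FPKM at 300 days, and 0.450, 0.134 and 0.0940 FPKM at 360 days. CDK1, the kinase that starts mitosis, had 0.194, 0.966 and 0.235 FPKM at 60 days, 0.413, 0.326 and 0.201 FPKM at 120 days, 0.274, 0.266 and 0.169 FPKM at 180 days, 0.167, 0.147 and 0.164 FPKM at 240 days, 0.117, 0.102 and 0.168 FPKM at 300 days, and 0.310, 0.1096 and 0.0808 FPKM at 360 days. In both genes 60 days replicate 2 stood above the other 17 libraries, at 2.95 times the next one for BUB1B and 2.34 times for CDK1. The next library was 120 days replicate 1 in both. Apart from replicate 2, the libraries of 60 days lay within the range of 120 days for BUB1B and within that of 180 days for CDK1.

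**Figure D1:**
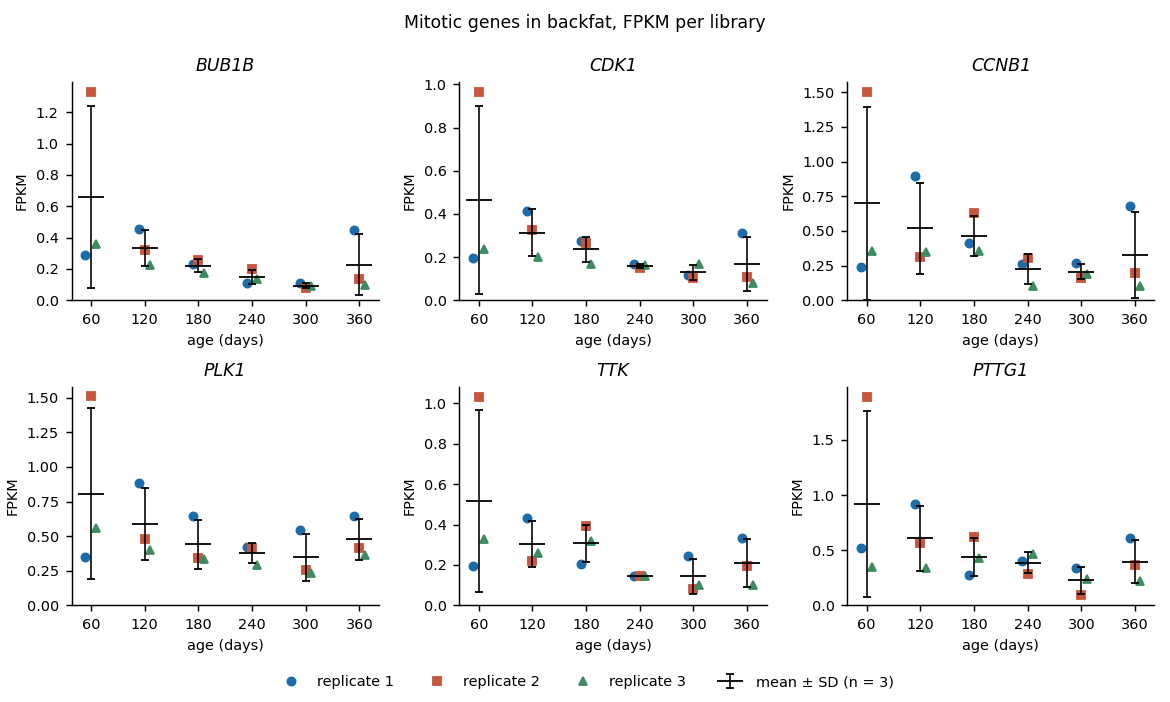
FPKM (vertical axis, from 0) of 6 mitotic genes by age in days (horizontal axis), with 1 symbol per library, shape and colour for the replicate number, and black marks for the mean ± SD of 3 libraries. In each panel 60 days replicate 2 is the highest point, and 120 days replicate 1 and 360 days replicate 1 stand above the other 2 libraries of their stages.

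The same library led 11 of the 21 mitotic genes. CCNB1, a cyclin that partners CDK1, stood at 1.502 FPKM there against 0.101 to 0.899 FPKM in the other 17 libraries. PLK1, a mitotic kinase, stood at 1.51 against 0.234 to 0.888 FPKM, and TTK, a kinase of the spindle checkpoint, at 1.03 against 0.0829 to 0.431 FPKM. PTTG1, the securin that guards sister chromatids, stood at 1.89 against 0.0934 to 0.918 FPKM. BUB1, ESPL1 (separase), CCNB3, CDC20 and CDC25B were also highest in it, at between 1.34 times (CDC25B) and 2.00 times (ESPL1) the next library. CCNB2, MAD2L1 and WEE1 were not: CCNB2 was highest in 180 days replicate 2 at 2.19 FPKM, MAD2L1 in the same library at 1.16 FPKM, and WEE1, which restrains CDK1, in 180 days replicate 1 at 1.21 FPKM. The lymphocyte marker list (9 genes) was highest in 60 days replicate 2 too, at 21.8 FPKM in sum against 13.6 to 18.1 FPKM in the other 17. The macrophage list stood at 67.1 FPKM within 38.9 to 121 FPKM, and that library was the one of 60 days with Y-linked RNA. The part of either in the result was not tested.

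Mean BUB1B was 0.660 ± 0.583 FPKM at 60 days (SD, n = 3), and it averaged 0.0933 ± 0.0147 FPKM at 300 days and 0.226 ± 0.195 FPKM at 360 days. In the edgeR quasi-likelihood fit over all 23205 loci tested, BUB1B was the member called higher at 60 days than in the mean of the other 5 stages, by a log2 fold change of 1.69 (SE 0.39, adjusted p = 0.0227). A call here takes both an adjusted p (Benjamini-Hochberg) up to 0.05 and a log2 fold change of 1 or more in size. It was 1 of 105 members, against 1.07% of all loci called higher, and no member was called lower (0.802% of all loci), so that 1.87% of all loci were called in either direction. By the adjusted p alone there were 3 members (5.26% of all loci), BUB1B higher (2.83%) and MYC and YWHAG lower (2.43%). An unadjusted p under 0.05 was found for 25 members (21.1%). DESeq2 called 3 members (3.08% of all loci) and limma on log2(FPKM + 0.1) 0 members (1.9%). Without 60 days replicate 2 its difference was 0.67 (adjusted p = 0.462) and no member was called. Without the low-Y libraries it was 2.70, but there replicate 2 is the only library of 60 days, so that fit is no check on it. The BUB1B locus (1:131075058-131144118, minus strand, Sscrofa11.1) also overlaps PAK6, so its reads cannot all be assigned to BUB1B. CCNB3 (1.202, adjusted p = 0.0530), TTK (1.17, 0.0998), CDC6 (1.17, 0.0721), CDK1 (1.15, 0.0977), PTTG1 (1.10, 0.156) and BUB1 (1.09, 0.167) did not pass. Without 60 days replicate 2 the differences were 0.62 for CCNB3, 0.19 for TTK, 0.98 for CDC6, 0.04 for CDK1 and BUB1 and 0.02 for PTTG1. The CCNB3 locus also overlaps AKAP4.

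Counted over the group, 17 of 21 mitotic members had a positive and 4 a negative difference at 60 days, with a median log2 difference of 0.59, against 51.6% of all loci higher and a median of 0.015 over all loci. Of the replication members 12 of 16 had a positive difference, with a median of 0.21. None of the 5 CDK inhibitors did, with a median of -0.23. Without 60 days replicate 2 the mitotic median was 0.16 (15 of 21 higher), the replication median 0.03 (9 of 16 higher) and the inhibitor median -0.47 (0 of 5 higher). Over the libraries with Y-linked RNA, where replicate 2 is the only one of 60 days, the inhibitor median was 0.00. The order of the 3 groups, mitotic above replication above inhibitors, is described here with no test, since members share pigs.

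**Figure D2:**
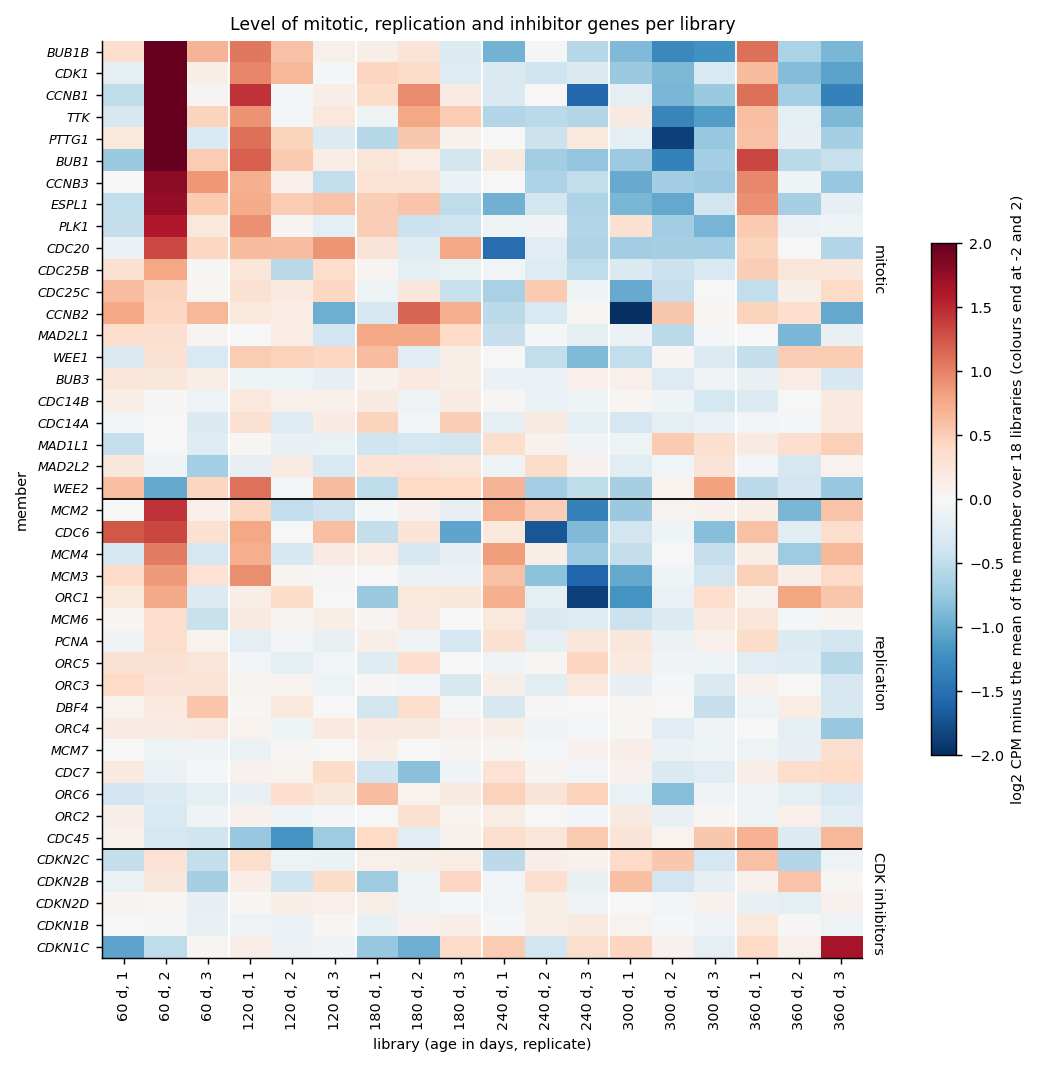
Log2 CPM of each mitotic, replication and CDK inhibitor member (rows, ordered within its group by 60 days replicate 2) in each library (columns, by age and replicate) minus the mean of that member over 18 libraries, in colour. The upper mitotic rows and those of MCM2, CDC6, MCM4 and MCM3 are red in 60 days replicate 2, CDC45 is blue in the 3 libraries of 120 days, CDC6, MCM2, MCM3 and ORC1 are blue in 240 days replicate 3, and CDKN1C is red in 360 days replicate 3.

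Along age, 2 mitotic genes fell, and MYC, GADD45G, GADD45B and CDKN1C rose. The slope was fitted with age as a covariate and is given per 300 days, the span from 60 to 360 days. Its p-values treat pigs as independent, although siblings share a stage, so they can be too small. It was called for 2 members lower with age, BUB1B and CDK1 (2.01% of all loci were called lower), and for 4 higher, MYC, GADD45G, GADD45B and CDKN1C (2.22% of all loci were called higher), together 6 members (4.22% of all loci). At an unadjusted p under 0.05 there were 34 members (26.5%). DESeq2 called 8 members (5.55% of all loci) and limma 6 (4.59%). CDK1 (14:64233816-64252739, plus strand) had a slope of -1.50 on the log2 scale (SE 0.43, adjusted p = 0.0310) and BUB1B one of -1.64 (SE 0.51, adjusted p = 0.0448). The CDK1 call was lost without 60 days replicate 2 (-0.87, adjusted p = 0.201), without 360 days replicate 2 (-1.44, adjusted p = 0.0553) and without 360 days replicate 3 (-1.39, adjusted p = 0.0770), and held in the other 15 of 18 fits that left out 1 library. The BUB1B call held in 3 of the 18. These left out 180 days replicate 1, or replicate 3 of that stage, or 360 days replicate 1. In the others the BUB1B slope ran up to -0.90 (adjusted p = 0.264, without 60 days replicate 2). Neither call held without the low-Y libraries, a fit with 1 library of 60 days and none of 180 days. A filter of at least 0.5 FPKM removed both genes from the test. Members called lower with age were 0 by limma on log2(FPKM + 1) (0.543% of all loci) and 3 on log2(FPKM + 0.1) (3.09%). They were 4 by DESeq2 (2.66%) and 4 with Y-linked RNA as a covariate (1.58%).

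In all, 19 of 21 mitotic members had a negative slope, with a median of -0.71, against 47.9% of all loci with a positive slope and a median of -0.03. Beside BUB1B and CDK1, the slopes of TTK (-1.33), CCNB1 (-1.28), PTTG1 (-1.26), CDC20 (-1.12), ESPL1 (-1.09), CCNB3 (-1.03) and BUB1 (-1.02) did not pass, at adjusted p between 0.0636 and 0.225. The CDC20 locus also overlaps ELOVL1. Without 60 days replicate 2 the mitotic median slope was -0.54, with 18 of 21 negative. MAD1L1, a checkpoint protein at the nuclear pore, ran the other way with a slope of 0.61 (SE 0.17, adjusted p = 0.0225), under the minimum fold. 360 days replicate 1 stood against the slope: it held 0.450 FPKM of BUB1B against 0.134 and 0.0940 FPKM in the other pigs of 360 days. Without it 13 members were called (4.38% of all loci in that fit), 10 of them lower with age (2.16%): BUB1, BUB1B, CCNB1, CCNB3, CDC20, CDK1, E2F2, ESPL1, PTTG1 and TTK.

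**Figure D3:**
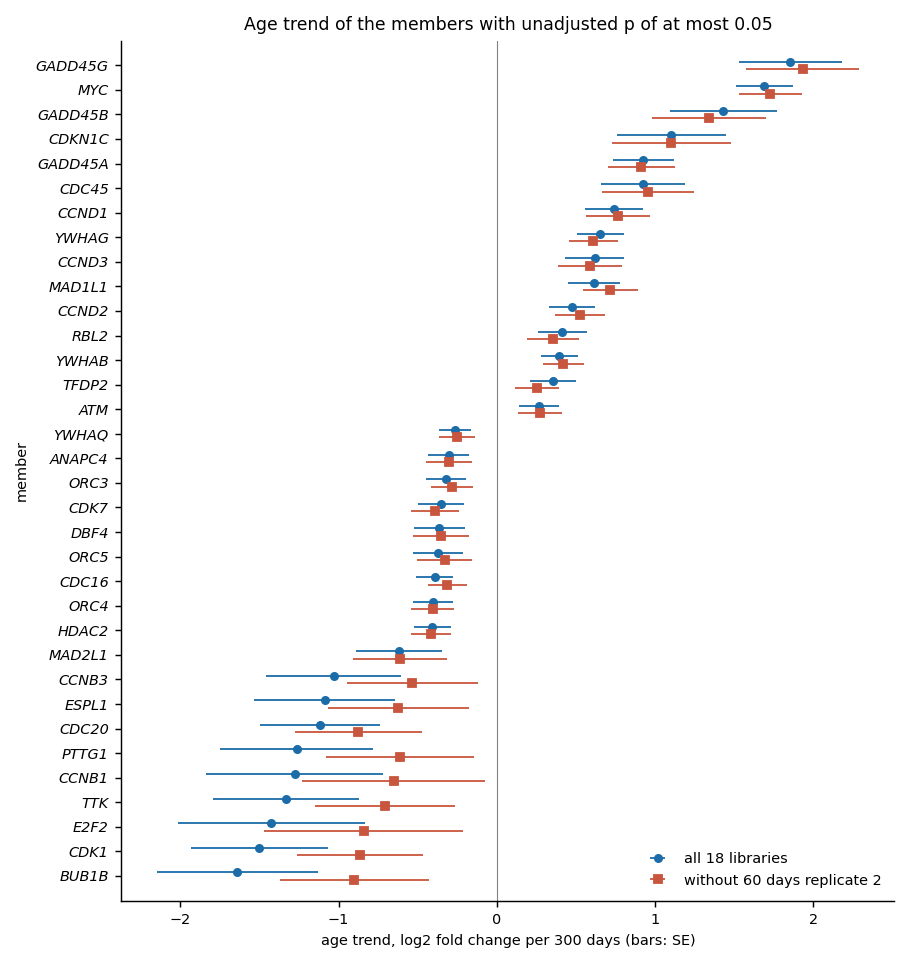
Age trend as log2 fold change per 300 days (horizontal axis, bars are SE) of the 34 members with an unadjusted p of at most 0.05 (rows), from all 18 libraries (blue circles) and without 60 days replicate 2 (red squares). The 9 members with slopes under -1 lie nearer to 0 without that library, while the slopes of MYC, the GADD45 genes and CDKN1C lie close together in both fits.

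Between neighbouring stages no member passed. An unadjusted p under 0.05 was found for 7 of 105 members between 120 and 60 days (12.2% of all loci). It was found for 8 between 180 and 120 days (11.4%), for 11 between 240 and 180 days (9.04%), for 2 between 300 and 240 days (3.70%) and for 8 between 360 and 300 days (8.44%). The test with adjustment and fold called 0.164% of all loci at 120 against 60 days and 0% in the other 4 comparisons, and DESeq2 and limma called 0 members in each. DESeq2 called, in the order of age, 1.64%, 1.25%, 0.616%, 0.116% and 0.349% of all loci, and limma on log2(FPKM + 0.1) called 0.194%, 0%, 0%, 0.00862% and 0.0129%. Among members with an unadjusted p under 0.05, BUB1B (1.29), CCNB3 (1.05) and GADD45B (0.97) had the largest positive differences at 360 days over 300 days, none past the adjusted threshold. Without 360 days replicate 1 these were 0.35 for BUB1B and 0.44 for CCNB3, and without 360 days replicate 3 that of GADD45B was 0.42. At 240 days over 180 days GADD45G had 1.12 (0.74 without 240 days replicate 1), CDC20 -1.02 and MAD2L1 -0.86. CDC45 had -0.67 at 120 days over 60 days and 0.98 at 180 days over 120 days, where CDC7, a kinase that fires replication origins, had -0.59. ORC6 (-0.71) and CCNE2 (-0.51) were the 2 such members at 300 days over 240 days. The mitotic median was -0.32 at 120 days over 60 days, and -0.25, -0.41, -0.10 and 0.48 at the next 4 steps in age. The first of these turned to 0.25 without 60 days replicate 2. The second was -0.05 without 120 days replicate 1 and turned to 0.27 when Y-linked RNA was a covariate. The third was -0.86 with that covariate and -0.13 by limma on log2(FPKM + 1), and the last was 0.24 without 360 days replicate 1 and 0.11 by that limma fit.

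**Figure D4:**
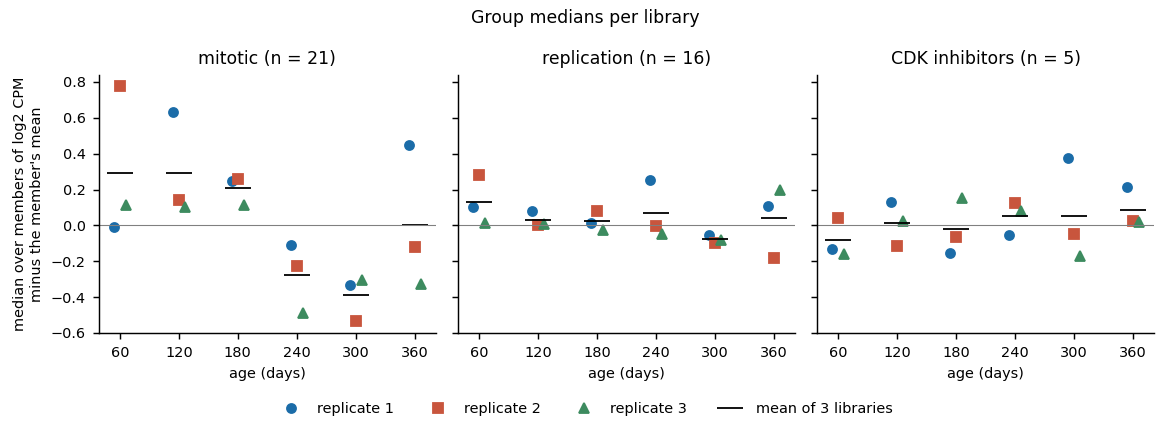
Median over the members of each group of log2 CPM minus the member's mean over 18 libraries (vertical axis), by age in days (horizontal axis), with 1 symbol per library and black marks for the mean of 3 libraries. Mitotic medians are at or above -0.01 up to 180 days and at or under -0.11 at 240 and 300 days, with 360 days replicate 1 at 0.45, while replication and inhibitor medians stay between -0.18 and 0.38.

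Per library, the mitotic median relative to each member's mean was -0.01, 0.78 and 0.11 at 60 days, 0.63, 0.14 and 0.10 at 120 days, 0.25, 0.26 and 0.11 at 180 days, -0.11, -0.23 and -0.49 at 240 days, -0.33, -0.54 and -0.30 at 300 days, and 0.45, -0.12 and -0.33 at 360 days. The 9 libraries up to 180 days did not overlap the 6 of 240 and 300 days, and the pigs of 360 days spanned both. The nearest values, -0.01 and -0.11, lay close beside a residual SD of the group median within stages of 0.284. This split is not among the comparisons tested, and the share of all loci split in this way was not counted. The replication median was between -0.18 (360 days replicate 2) and 0.28 (60 days replicate 2), and the inhibitor median between -0.17 (300 days replicate 3) and 0.38 (300 days replicate 1), with overlap of the stages. The summed marker list of preadipocytes and fibroblasts (9 genes) was also higher in the first stages: 1735, 2918 and 2400 FPKM at 60 days, 4991, 3480 and 3746 FPKM at 120 days, 3167, 1550 and 1380 FPKM at 180 days, 1946, 766 and 855 FPKM at 240 days, 1387, 1510 and 1431 FPKM at 300 days and 1630, 1112 and 874 FPKM at 360 days. Over the 18 libraries the medians in this list were 1053 FPKM for COL3A1 and 398 FPKM for COL1A1, against 0.491 (DPP4) to 69.8 FPKM (DCN) for its other genes. The sum thus mostly follows these collagens and is no count of precursor cells. The part of the list in the mitotic levels was not tested.

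Among the replication genes, the helicase subunits MCM2, MCM3, MCM4 and MCM6 were highest in 60 days replicate 2, as were CDC6, ORC1 and PCNA, in all 7 of 16 by FPKM (4 of 16 by CPM). The share over all loci was not counted. MCM2 had 1.31 FPKM there against 0.167 to 0.735 FPKM in the other 17 libraries, and MCM4 1.04 against 0.275 to 0.832 FPKM. MCM3 was at 1.28 FPKM there, next to 1.27 FPKM in 120 days replicate 1. MCM7 stayed between 3.35 and 4.17 FPKM, and PCNA, the sliding clamp of DNA polymerase, between 2.61 and 5.42 FPKM. Several of these loci overlap neighbours: MCM2 with PODXL2, MCM7 with TAF6, and PCNA with TMEM230 and CDS2. CDC6 and ORC1, which load the helicase, were low, at 0.0210 to 0.220 and 0.0429 to 0.322 FPKM. None of MCM2 (0.69, adjusted p = 0.320), MCM3 (0.56, 0.337), MCM4 (0.24, 0.747), MCM6 (0.01, 0.995), MCM7 (-0.08, 0.682), PCNA (0.14, 0.659) and ORC1 (0.23, 0.817) passed at 60 days against the other stages. The median slope of the group was -0.21 with all libraries and -0.01 without 60 days replicate 2.

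CDC45, a subunit of the replicative helicase, took another course. The locus (14:51132781-51162368, plus strand) had 4.04, 2.99 and 2.84 FPKM at 60 days, 2.12, 1.56 and 2.15 FPKM at 120 days, 4.64, 3.09 and 3.71 FPKM at 180 days, 4.38, 3.97 and 5.01 FPKM at 240 days, 4.05, 3.52 and 5.18 FPKM at 300 days, and 5.59, 2.90 and 4.79 FPKM at 360 days. The 3 libraries of 120 days were the 3 lowest and did not overlap those of other stages (share over all loci not counted). Over the 6 stages the test for any difference gave an adjusted p of 0.0290, with 1.29 on the log2 scale between the highest and lowest stage. The call was lost in 6 of 18 fits without 1 library, namely 60 days replicate 2 or 3, each library of 120 days, and 360 days replicate 3 (adjusted p up to 0.0867), and without the low-Y libraries (0.183). The locus also covers CLDN5, a tight junction gene of endothelium, and UFD1, so these values are of the locus and not of CDC45 alone. Summed endothelial markers were lowest at 120 days as well, at 85.5 to 87.1 FPKM against 96.4 to 137 FPKM in the other 15 libraries. The part of these markers, or of CLDN5 and UFD1, in the values of the locus was not tested.

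The test for any stage difference passed for 5 of 105 members (4.60% of all loci): CDC45, MYC, GADD45A, GADD45G and YWHAG. At an unadjusted p under 0.05 there were 30 members (23.4%), while DESeq2 called 23 (18.3% of all loci) and limma 3 (4.43%). MYC is a transcription factor that drives growth and entry into the cycle. It had 2.88, 2.56 and 2.66 FPKM at 60 days, 2.34, 2.68 and 2.95 FPKM at 120 days, 2.81, 3.21 and 3.65 FPKM at 180 days, 5.70, 4.28 and 4.27 FPKM at 240 days, 3.53, 4.69 and 5.16 FPKM at 300 days, and 7.01, 7.55 and 9.10 FPKM at 360 days. The 3 libraries of 360 days stood above the 15 others without overlap (share over all loci not counted). The MYC locus (4:12452756-12460424, minus strand) rose with age by 1.69 per 300 days (SE 0.18, adjusted p = 2.74e-05), was called in 18 of 18 fits without 1 library (1.50 to 1.78), and held without the low-Y libraries (1.84, adjusted p = 0.00641). At 60 days against the other stages its difference was -0.79 (adjusted p = 0.00573), under the minimum fold.

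**Figure D5:**
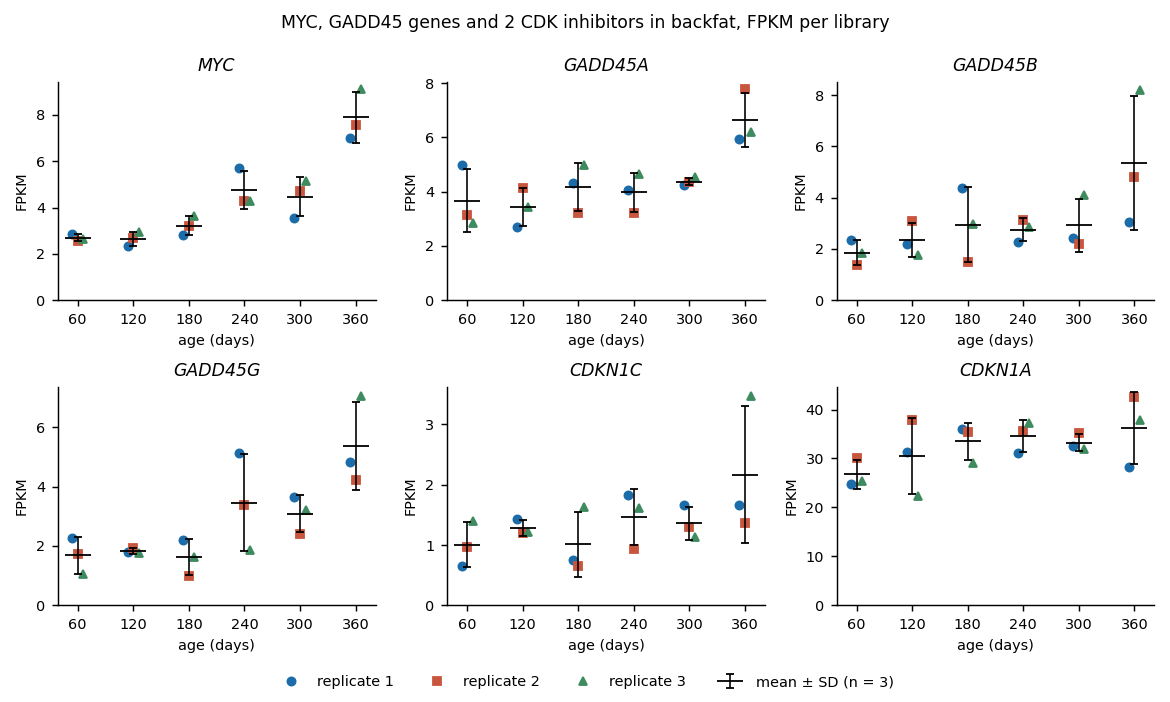
FPKM (vertical axis, from 0) of MYC, GADD45A, GADD45B, GADD45G, CDKN1C and CDKN1A by age in days (horizontal axis), with 1 symbol per library, shape and colour for the replicate number, and black marks for the mean ± SD of 3 libraries. MYC and GADD45A of 360 days lie above all other points, and 360 days replicate 3 is the highest library of GADD45B, GADD45G and CDKN1C.

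The GADD45 genes encode small proteins induced by stress and DNA damage that bind CDK1 and PCNA. GADD45G averaged 5.37 ± 1.49 FPKM at 360 days and 1.69 ± 0.62 FPKM at 60 days (SD, n = 3 each), with 4.82, 4.23 and 7.05 FPKM in the pigs of 360 days against 2.28, 1.74 and 1.05 FPKM in those of 60 days. Its slope was 1.85 (SE 0.32, adjusted p = 0.00182) and was called in 18 of 18 fits without 1 library. The test for any stage difference (adjusted p = 0.0205) was lost without 360 days replicate 3 (0.0653). GADD45B had 3.05, 4.79 and 8.19 FPKM at 360 days, against 2.34, 1.39 and 1.83 FPKM at 60 days. Its slope was 1.43 (SE 0.34, adjusted p = 0.0115), and 0.98 (adjusted p = 0.0662) without 360 days replicate 3.

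GADD45A had 5.93, 7.80 and 6.19 FPKM at 360 days, above the 2.72 to 5.00 FPKM of the 15 other libraries (share over all loci not counted). Its slope was 0.93 (SE 0.19, adjusted p = 0.00512), under the minimum fold. The test for any stage difference of GADD45A (adjusted p = 0.0394) was lost in 8 of 18 fits without 1 library, up to an adjusted p of 0.120. Of the 9 members of the DNA damage group, 7 had a positive slope (median 0.27). MDM2, a ubiquitin ligase, had -0.19 (adjusted p = 0.312), and the kinases ATM, ATR and PRKDC and CHEK2 were not called.

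A list of 14 immediate early genes (FOS, JUN, EGR1 and others), which many stimuli and tissue handling induce within minutes, moved with these genes. It summed to 127 to 150 FPKM at 60 days, 97.3 to 184 FPKM at 120 days, 94.2 to 267 FPKM at 180 days, 287 to 318 FPKM at 240 days, 219 to 317 FPKM at 300 days and 371 to 490 FPKM at 360 days. The 3 libraries of 360 days were the highest in this list too. The part of the list in the levels of MYC and GADD45 was not tested.

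The CDK inhibitors differed among themselves. CDKN1C (p57) had 1.67, 1.36 and 3.47 FPKM at 360 days, against 0.656, 0.959 and 1.40 FPKM at 60 days. The highest value is of 360 days replicate 3, the library that stood apart in GC content and mapping, whose part in this result and in those of GADD45B and GADD45G was not tested beyond leaving it out. Its slope was 1.10 (SE 0.34, adjusted p = 0.0448) and was called in 9 of 18 fits without 1 library. Without 360 days replicate 3 it was 0.65 (adjusted p = 0.238), and the call was also lost without any 1 of 60 days replicates 1 and 2, 120 days replicates 2 and 3, 240 days replicates 1 and 3, 300 days replicate 1 and 360 days replicate 1. The other 4 had no slope that passed: CDKN1B (p27) 0.11 (adjusted p = 0.440), CDKN2B (p15) 0.31 (0.522), CDKN2C (p18) 0.21 (0.639) and CDKN2D (p19) -0.08 (0.637). CDKN1B stayed between 4.55 and 6.46 FPKM and CDKN2C between 1.42 and 3.17 FPKM. The CDKN2D locus also carries KRI1. CDKN1A (p21) has no cell cycle entry in the table and is no member. By FPKM it was the highest inhibitor at 22.4 to 42.6 FPKM, with a slope of 0.53 (SE 0.15, adjusted p = 0.0311), under the minimum fold. CDKN2A was not analysed here.

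The D-type cyclins, which bind CDK4 and answer to growth signals, had positive slopes. CCND1 had 5.29, 5.54 and 3.72 FPKM at 360 days against 3.15, 3.04 and 3.45 FPKM at 60 days, with a slope of 0.74 (SE 0.18, adjusted p = 0.0148). CCND2 had 0.47 (adjusted p = 0.0424) and CCND3 0.62 (0.0373), with the CCND3 locus overlapping BYSL, MED20 and TAF8. All 3 lay under the minimum fold. By the adjusted p alone 12 members rose with age (6% of all loci) and 5 fell (4.88%), together 17 (10.9%). Without 60 days replicate 2 there were 7 (6.69% of all loci): MYC, the 3 GADD45 genes, CCND1, MAD1L1 and YWHAG. None of the 5 that fell was among them. Without 360 days replicate 3 there were 5 (6.32%), all rising. The 12 were the 3 D cyclins, MYC, the 3 GADD45 genes, CDKN1C, CDC45, MAD1L1, YWHAB and YWHAG, and the 5 were BUB1B, CDK1, CDC16, HDAC2 and ORC4. The kinases CDK4 (8.12 to 13.1 FPKM, slope 0.18) and CDK2 (6.04 to 8.11 FPKM, slope 0.03) and the E cyclins CCNE1 (-0.37) and CCNE2 (-0.30) did not pass. CDK6, at 3.90 to 7.44 FPKM, has no cell cycle entry in the table and is no member.

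In the RB and E2F circuit, E2F1 and E2F2, activators of replication genes, were highest in the library that led the mitotic genes. E2F1 had 1.86 FPKM in 60 days replicate 2 and 1.26 FPKM in 120 days replicate 1, against 0.181 to 0.678 FPKM in the other 16 libraries. E2F2 had 0.420 FPKM in 60 days replicate 2 and 0.0264 to 0.227 FPKM elsewhere. Neither passed at 60 days against the other stages (E2F1 1.06, adjusted p = 0.169, and E2F2 1.18, adjusted p = 0.180), and without 60 days replicate 2 the differences were 0.21 and 0.29. E2F3, E2F4 and E2F5 had slopes of -0.24, 0.22 and 0.10, none past the threshold. RBL2 (p130), the RB relative of resting cells, was the highest of the family by FPKM, at 12.8 to 21.0 FPKM. Its libraries of 60 days held 14.1, 12.8 and 16.1 FPKM, and the difference of -0.34 did not pass (adjusted p = 0.0856). RB1 (3.89 to 6.43 FPKM, slope 0.01) and RBL1 (1.11 to 2.33 FPKM, slope -0.17) did not pass either, and RBL1 was highest in 60 days replicate 2.

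YWHAG, a 14-3-3 protein that binds phosphorylated partners such as CDC25, had the highest level per length of the members, though YWHAZ, at an implied length of 45.6 kb, had more counts (median 78300 against 16490). It had 32.1, 28.8 and 33.1 FPKM at 60 days, 29.5, 35.4 and 30.5 FPKM at 120 days, 38.6, 43.2 and 40.9 FPKM at 180 days, 40.0, 46.4 and 42.0 FPKM at 240 days, 59.5, 37.0 and 39.6 FPKM at 300 days, and 42.0, 42.0 and 37.2 FPKM at 360 days. Levels of the first 2 stages lay under those of the later 4, without overlap (share over all loci not counted). The test for any stage difference gave an adjusted p of 0.0481 and held in 3 of 18 fits without 1 library, those without a library of 300 days (up to 0.120). The slope was 0.65 (SE 0.15, adjusted p = 0.00818).

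The cohesin genes and the anaphase-promoting complex, which act in mitosis but also in resting cells, had small differences. Their median members varied by 1.52 and 1.89 times between the lowest and highest library. No member of either was called in any comparison. Over all loci 4.22% were called along age and 4.60% for any stage difference, shares that can give 0 calls among 5 and 12 members. CDC16, of the anaphase-promoting complex, fell with age by edgeR (slope -0.39, adjusted p = 0.0351), under the minimum fold. Their median slopes were -0.02 each, against -0.71 for the mitotic kinases, cyclins and checkpoint genes.

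The 39 loci that carry or overlap another named gene were also set aside. Among genes named above they include BUB1B, CCNB3, CDC20, CDC45, MCM2, MCM7, PCNA, ORC4, CCND3, CCNE2, CDK2, CDK4, CDKN2D, E2F4, E2F5, RB1, RBL2, MDM2, CHEK2 and PRKDC. Of the 66 others, 4 were called higher with age (2.22% of all loci) and 1, CDK1, lower (2.01%), and 16 of 17 mitotic members among them had a negative slope (median -0.62).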

How the data were processed

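Backfat RNA of 18 pigs was depleted of ribosomal RNA and sequenced with paired ends. Per the methods of the study, reads were trimmed with Cutadapt, mapped with Hisat2 to Sscrofa11.1 and assembled with StringTie. The authors took the deposited FPKM from StringTie. They also deposited raw counts, whole numbers for each locus in each library with no normalization. How these counts were made is not given in the sources used here. The 0.1 FPKM filter kept 23205 of 27883 loci. Tests on the counts were quasi-likelihood F tests from edgeR (4.0.16, robust, TMM scaling) in R (version 4.3.3), with 18 libraries and 6 stages in 1 fit, common biological coefficient of variation 0.404, median prior degrees of freedom 3.77 and residual degrees of freedom 12. There were 8 comparisons: any stage difference (adjusted p alone), 5 adjacent stages, 60 days against the mean of the other 5 stages, and age as a covariate. P-values were adjusted by Benjamini-Hochberg over all loci tested. SE is the log2 fold change over the square root of F. The median depth was 78364890.5 counts per library. The test was run on simulated counts with known changes, a smaller spread than in these data and independent libraries. That run gives no error rates for these data.

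The members, groups and lists were chosen with earlier results of these data known. Members named are those called in any of the 8 comparisons, a fixed list of cell cycle genes, and, in each comparison, up to 3 rising and 3 falling by size of change if the unadjusted p was at most 0.05. Other members are named where a count or a highest library is given, and these were chosen after their values were seen. Some results are not reported here. For 5 assembled loci without a symbol, names were taken from their descriptions.

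Alternatives were at least 0.5 FPKM, no filter, median-of-ratios scaling, DESeq2 (version 1.42.0), limma (version 3.58.1) with trend on log2(FPKM + 0.1) or log2(FPKM + 1), a replicate block, the adjusted p alone, the Y-linked level as a covariate, leaving out the 7 low-Y libraries, the libraries of the compared stages alone, and each library left out in turn. Leaving out 60 days replicate 2 and 360 days replicate 3 together was chosen after seeing the data. No sample column went unused (0 of them).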

Additional observations from a re-analysis of the deposited data

How the results depend on the processing

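The replicate numbers do not pair pigs. Residuals of libraries with the same number correlated by 0.0131 on average (45 pairs), those with different numbers by -0.00639 (90 pairs), and for 5 of 18 libraries the closest partner shared the number. With the replicate number as a block, 3 members were called for any stage difference, against 5 without it, and the calls at 60 days (1) and along age (6) did not change in number. Members called for any stage difference were 23 by DESeq2, 3 by limma with either pseudocount (0.1 or 1), 3 with the Y-linked covariate, 1 without the low-Y libraries, and 1 without 60 days replicate 2 and 360 days replicate 3 together, a setting chosen after seeing the data. Leaving out 1 library gave 1 (without 360 days replicate 3) to 7. At 60 days against the other stages the number was 3 by the adjusted p alone, 3 by DESeq2 and 3 with the Y-linked covariate, and 0 with at least 0.5 FPKM (which removes BUB1B from the test), by limma with either pseudocount, without the low-Y libraries, and without both named libraries. Leaving out 1 library gave 0 (without 60 days replicate 2) to 3. Along age it was 17 by the adjusted p alone, 2 by limma on log2(FPKM + 1) and 2 without both named libraries. Leaving out 1 library gave 2 (without 360 days replicate 3) to 13 (without 360 days replicate 1), and 3 without 60 days replicate 2. Adjacent stages gave 0 members in each setting run. Without both named libraries the 60 days differences of BUB1 (-0.01), CDK1 (-0.01) and PTTG1 (-0.03) changed sign. Without 60 days replicate 2 alone they were 0.04, 0.04 and 0.02, and with 1 library left out they ran up to 1.51, 1.51 and 1.47. Over 68 named results, 1779 alternative values kept direction and side of the threshold, 94 lost the threshold and 25 passed it. Limma on log2(FPKM + 0.1) moved the median slope of all loci to -0.17, against -0.03, and turned the median slope of the RB and E2F group to -0.04, against 0.10, while the mitotic (-0.87 to -0.28), replication (-0.31 to -0.15) and inhibitor (0.01 to 0.42) median slopes kept their sign in the settings that left out no single library.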

Other observations

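Proliferation genes outside the KEGG entry gave a wider view of the same libraries. Of 38 that were measured, 22 were highest in 60 days replicate 2, a share that was not counted over all loci. KIF11, a spindle motor, stood at 3.82 FPKM there against 0.262 to 1.44 FPKM in the other 17 libraries. TOP2A, which untangles replicated DNA, stood at 3.68 against 0.198 to 1.503 FPKM, and CENPF, a kinetochore protein, at 1.99 against 0.124 to 0.982 FPKM. At 60 days against the mean of the other 5 stages, 29 of 38 were higher (median 0.61), against 51.6% of all loci. By edgeR 3 of 38 were called higher, against 1.07% of all loci. These were KIF11 (adjusted p = 0.0475, log2 difference 1.50), KIF20A (1.44, adjusted p = 0.0326) and CENPE (1.28, adjusted p = 0.0203). In 60 days replicate 2 they stood at 2.66, 2.06 and 2.31 times the next library. Their differences and the median of the 38 without that library are not given here. The condensin subunit NCAPH had 1.22 FPKM in 60 days replicate 2 and 0.834 and 0.970 FPKM in the other pigs of 60 days. Its median was 0.518 FPKM over the 17 libraries other than replicate 2 of 60 days. By edgeR its difference was 0.83 (SE 0.13, adjusted p = 0.00227), under the minimum fold. The NCAPH difference without 60 days replicate 2 is not given here.

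Along age, 32 of the 38 had a negative slope (median -0.57). NDC80 (-2.02, adjusted p = 0.0267) and NCAPG (-1.11, adjusted p = 0.0358) were called lower, 2 of 38 against 2.01% of all loci. In 60 days replicates 1, 2 and 3 NDC80 had 0.104, 0.486 and 0.0872 FPKM, and NCAPG 0.821, 1.54 and 0.644 FPKM. Their slopes without 60 days replicate 2 are not given here. FEN1, the nuclease that matures lagging strands, had a positive slope of 0.81 that did not pass (adjusted p = 0.119). MKI67, AURKA and RRM2 were not analysed here.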
